A study of Mus musculus with 6 samples.

Results

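In mouse MLL-AF9 leukaemia cells, 27 of 24015 listed genes were near silent without tamoxifen and clearly counted in every library after tamoxifen, which in these mice releases the kinase NIK. They were chosen by their own values: under 1 CPM (the raw count of a gene as a share of its library's total count, times 1000000) in each LSPC library and at least 3 CPM in each LSPCT library. Among them were the adhesion molecule genes Cadm3 and Dscam, the kinase gene Nuak1, the vesicle fusion gene Cplx2, the myosin gene Myo1h, the lymphocyte receptor gene Cd96 and the interferon-stimulated gene Ifit1. Of 12128 genes under 1 CPM in every LSPC library, 37 (0.305%) passed the second threshold, and 10 of these were left out by symbol. The 10 were Ackr1, Gstt1, Ccl5, Ccr10, St6galnac2, St6galnac1, Dlk1, Ciita, Trim29 and Col4a5.

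The LSPCT group was 3 RNA-seq libraries of leukaemia stem/progenitor cells, sorted from tamoxifen-treated mice with developed leukaemia, and the LSPC group was 3 such libraries from untreated mice. Both groups were murine MLL-AF9 acute myeloid leukaemia started from lin-cKit+ bone marrow progenitors of NIKERT2 mice, which carry Rosa-loxp-STOP-loxp-NIK and Rosa-CreERT2, so both groups carry the fusion and both Rosa alleles. Tamoxifen was given to the LSPCT mice only, and tamoxifen itself, Cre activity and NIK therefore cannot be told apart. The Rosa locus is active in most cell types; whether host cells of the leukaemic mice carry the alleles is not stated. The sources used here do not give the dose, the time after tamoxifen, the age of the mice or the gates of the sort, nor whether the replicates came from separate mice, so the spread between libraries may be technical.

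NIK, encoded by Map3k14, is the kinase of the noncanonical NF-kB pathway. It is normally kept low by continuous degradation, and when it accumulates it drives the processing of p100, encoded by Nfkb2, to p52, which enters the nucleus with RelB. The pathway is known for lymphoid organ formation, and in blood cells for B cell survival and dendritic cell function.

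Library totals were 19999071, 21541142 and 22454753 counts in LSPCT and 20410001, 23639689 and 26773176 counts in LSPC, and a gene with no count could have had up to 3 counts, worth 0.112 to 0.15 CPM in these libraries. Such limits cover counting error only. Map3k14 had 130.0, 191.0 and 161.0 CPM in LSPCT, against 26.1, 24.2 and 28.9 CPM in LSPC, so every LSPCT library was above every LSPC library. Counts per gene do not separate the transgene from the endogenous gene. Of 12 leukaemia stem and progenitor markers, 1 rose (Fcgr2b) and 5 fell (Mpo, Elane, Flt3, Cebpa and Fcgr3), by edgeR at an adjusted p under 0.05. Of all tested genes, 8.96% rose and 8.24% fell. Kit, the stem cell factor receptor, had 194.0, 126.0 and 139.7 CPM in LSPCT, against 129.5, 137.0 and 118.0 CPM in LSPC (log2 fold change 0.25, edgeR adjusted p = 0.33), and Mpo, encoding myeloperoxidase, had 372.0, 112.0 and 76.2 CPM in LSPCT, against 4021.0, 4019.9 and 2958.0 CPM in LSPC. Kit was thus present in all 6 libraries.

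Together the 27 genes held 9099, 13336 and 12609 counts in LSPCT, against 185, 251 and 327 counts in LSPC. No single gene count in an LSPCT library was below 74, and none in an LSPC library was above 24. The ratio of mean CPM, LSPCT over LSPC, had a median of 27.4 and ranged between 6.34 and 2291, with 24 genes over 10-fold and 9 over 50-fold. All 27 passed the filter on low counts and were called higher by edgeR's quasi-likelihood test (adjusted p under 0.05), against a background of 8.96% of 12729 tested genes called higher. The thresholds used this contrast, so nothing is read from that count.

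**Figure D1:**
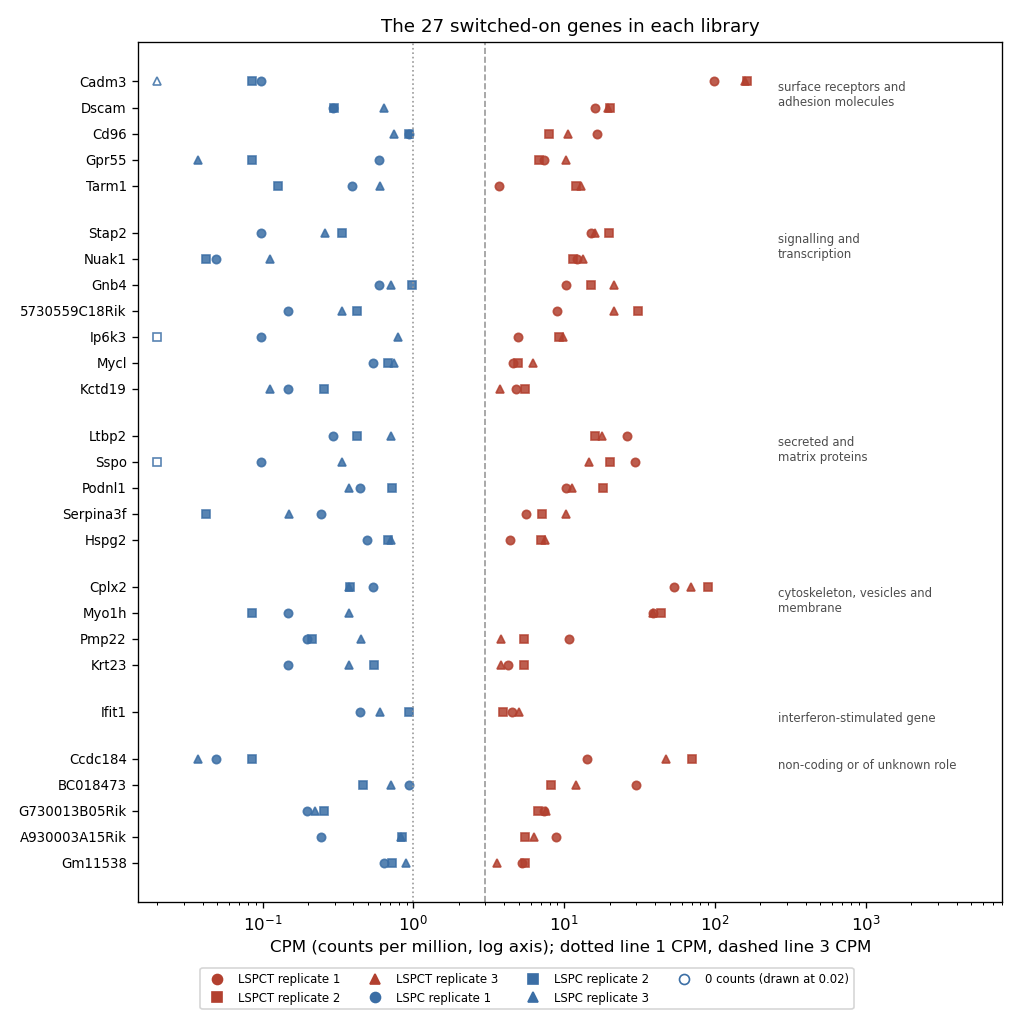
CPM of the 27 genes (rows, grouped by role) in each library on a log axis, with LSPCT in red and LSPC in blue, replicates by shape, and counts of 0 drawn open at 0.02. Dotted and dashed lines mark 1 and 3 CPM, the thresholds that chose the genes, so the empty band between them is set by the choice.

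The thresholds of 1 and 3 CPM had close calls on both sides. Gnb4 (highest LSPC value 0.973 CPM), Cd96 (0.931 CPM) and BC018473 (0.931 CPM) were just inside the LSPC limit, and Arhgef40 (1.01 CPM), 6720468P15Rik (1.03 CPM) and Fmn1 (1.03 CPM) were just outside it. Gm11538 (lowest LSPCT value 3.56 CPM), Tarm1 (3.7 CPM) and Kctd19 (3.74 CPM) were just inside the LSPCT limit, and Spic (2.92 CPM), Pcdhgc3 (2.85 CPM) and 5730460C07Rik (2.74 CPM) were just outside it. Arhgef40 had 11.8, 20.1 and 14.5 CPM in LSPCT, against 0.931, 0.677 and 1.01 CPM in LSPC. Fmn1 had 6.35, 10.6 and 14.9 CPM in LSPCT, against 1.03, 0.635 and 0.598 CPM in LSPC. For 6720468P15Rik there were 3.75, 4.04 and 4.32 CPM in LSPCT, against 1.03, 0.804 and 0.896 CPM in LSPC. In each of these, 1 LSPC library exceeded 1 CPM. Pcdhgc3 had 2.85, 8.12 and 7.53 CPM in LSPCT, against 0.196, 0.508 and 0.261 CPM in LSPC. Spic had 21.1, 2.92 and 8.55 CPM in LSPCT, against 0.833, 0 and 0.336 CPM in LSPC. For 5730460C07Rik there were 4.75, 2.74 and 4.54 CPM in LSPCT, against 0, 0.0423 and 0 CPM in LSPC. In each of these, 1 LSPCT library fell short of 3 CPM. The count of 27 also depended on single libraries: the same thresholds took 50 genes without LSPCT replicate 1 and 44 without LSPC replicate 3. With the groups exchanged, the thresholds took 4 genes of 11575 (0.0346%), namely Reep6, Slc35e4, Stxbp6 and Shroom2. Stxbp6 had 0.4, 0.603 and 0.846 CPM in LSPCT, against 4.12, 7.15 and 6.42 CPM in LSPC.

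**Figure D2:**
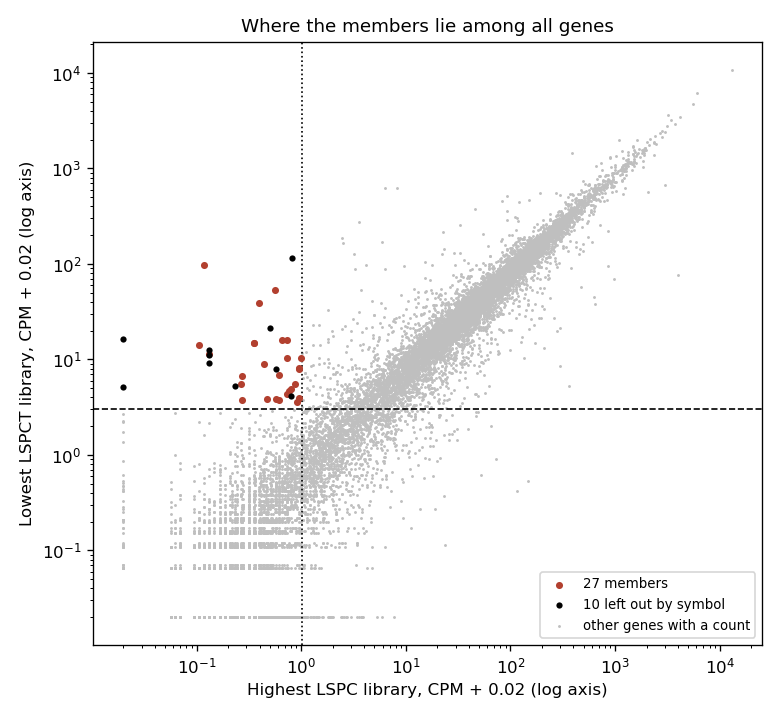
Lowest LSPCT value (vertical) against highest LSPC value (horizontal) for every gene with a count, in CPM plus 0.02 on log axes, with the 27 genes in red and the 10 left out by symbol in black. The lines mark 3 CPM and 1 CPM; the red and black points fill the upper left corner that the thresholds define.

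Surface receptors and adhesion molecules made up 5 of the 27. Cadm3, an immunoglobulin-family adhesion molecule best known from neurons, had 98.3, 162.0 and 158.0 CPM in LSPCT, against 0.098, 0.0846 and 0 CPM in LSPC. Its means were 139.0 ± 35.7 CPM in LSPCT and 0.0609 ± 0.0531 CPM in LSPC (SD, n = 3 each), a ratio of 2291 that rests on 4 counts in all of LSPC. Cadm3 was thus nearly without counts in untreated cells, and LSPCT replicate 1 was its lowest treated library. Exons of Cadm3 overlap those of Ackr1 on the same strand, so some reads may be of either gene. Dscam, a homophilic receptor known for self-avoidance of neurites, had 16.0, 20.1 and 19.6 CPM in LSPCT, against 0.294, 0.296 and 0.635 CPM in LSPC. Cd96, a receptor of T and natural killer cells that binds the poliovirus receptor, had 16.6, 7.89 and 10.6 CPM in LSPCT, against 0.931, 0.931 and 0.747 CPM in LSPC. Dscam varied little between treated libraries, and Cd96 was highest in LSPCT replicate 1. Gpr55, a receptor for lysophosphatidylinositol, had 7.35, 6.78 and 10.2 CPM in LSPCT, against 0.588, 0.0846 and 0.0374 CPM in LSPC. Tarm1, an activating receptor of myeloid cells, had 3.7, 11.9 and 12.9 CPM in LSPCT, against 0.392, 0.127 and 0.598 CPM in LSPC. For Tarm1 the treated libraries differed more, with replicate 1 well under the other two.

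Signalling and transcription genes made up 7. Stap2, an adaptor with a phosphotyrosine-binding domain, had 15, 19.9 and 15.9 CPM in LSPCT, against 0.098, 0.338 and 0.261 CPM in LSPC. Nuak1, a kinase related to AMPK, had 12.1, 11.4 and 13.3 CPM in LSPCT, against 0.049, 0.0423 and 0.112 CPM in LSPC, with means of 12.3 ± 0.96 CPM and 0.0678 ± 0.0385 CPM (SD, n = 3 each). Nuak1 was even across the treated libraries and close to 0 in the untreated ones. Gnb4, a beta subunit of heterotrimeric G proteins, had 10.2, 15.1 and 21.4 CPM in LSPCT, against 0.588, 0.973 and 0.71 CPM in LSPC. The gene listed as 5730559C18Rik, named Inava by RefSeq and an adaptor of innate immune signalling, had 9.0, 30.9 and 21.5 CPM in LSPCT, against 0.147, 0.423 and 0.336 CPM in LSPC. Its treated libraries spread more widely than those of Stap2 or Nuak1. Kctd19, a BTB-domain protein needed for meiosis in the mouse testis, had 4.8, 5.52 and 3.74 CPM in LSPCT, against 0.147, 0.254 and 0.112 CPM in LSPC. Ip6k3, an inositol hexakisphosphate kinase, averaged 7.95 ± 2.65 CPM in LSPCT and 0.294 ± 0.427 CPM in LSPC, and had no count in LSPC replicate 2. Mycl, the L-Myc transcription factor, which dendritic cells express, averaged 5.25 ± 0.833 CPM in LSPCT and 0.654 ± 0.106 CPM in LSPC. Both had groups that did not overlap, as the thresholds require.

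Secreted and matrix proteins made up 5. Ltbp2, a fibrillin-related protein of elastic matrix, had 26.0, 16.0 and 17.8 CPM in LSPCT, against 0.294, 0.423 and 0.71 CPM in LSPC. Sspo, encoding SCO-spondin, a giant protein secreted into the cerebrospinal fluid, had 29.5, 20.2 and 14.7 CPM in LSPCT, against 0.098, 0 and 0.336 CPM in LSPC. Both were highest in LSPCT replicate 1. Podnl1, a small leucine-rich matrix protein, had 10.3, 18.1 and 11.3 CPM in LSPCT, against 0.441, 0.719 and 0.374 CPM in LSPC. Serpina3f, a serine protease inhibitor, had 5.55, 7.15 and 10.3 CPM in LSPCT, against 0.245, 0.0423 and 0.149 CPM in LSPC. Serpina3f belongs to a family of near-identical mouse copies, so its counts are uncertain. Hspg2, encoding the basement membrane proteoglycan perlecan, averaged 6.3 ± 1.7 CPM in LSPCT and 0.625 ± 0.119 CPM in LSPC (SD, n = 3 each).

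Genes of the cytoskeleton, vesicles and membrane made up 4. Cplx2, encoding complexin, which binds SNARE complexes in regulated exocytosis, had 53.3, 89.3 and 69.2 CPM in LSPCT, against 0.539, 0.381 and 0.374 CPM in LSPC. Myo1h, an unconventional myosin, had 38.7, 44.1 and 38.6 CPM in LSPCT, against 0.147, 0.0846 and 0.374 CPM in LSPC. These made ratios of mean CPM of 164 for Cplx2 and 200.5 for Myo1h. Pmp22, a membrane protein of myelin, had 10.8, 5.39 and 3.83 CPM in LSPCT, against 0.196, 0.212 and 0.448 CPM in LSPC. Krt23, an acidic keratin, had 4.25, 5.39 and 3.79 CPM in LSPCT, against 0.147, 0.55 and 0.374 CPM in LSPC. Pmp22 was highest in LSPCT replicate 1, and Krt23 in replicate 2.

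Ifit1, which binds foreign RNA lacking cap methylation, was the only one of the 27 on the list of 35 interferon-stimulated genes. It had 4.5, 3.9 and 5.03 CPM in LSPCT, against 0.441, 0.931 and 0.598 CPM in LSPC. It has close family copies, so its counts are uncertain too. Of the other 34 genes on that list, 24 rose and none fell, with a median log2 fold change of 1.4, beside 8.96% that rose and a median of 0.0 over all tested genes. Rtp4, a chaperone of G protein-coupled receptors, had 22.3, 19.8 and 20.4 CPM in LSPCT, against 1.96, 1.65 and 1.49 CPM in LSPC (log2 fold change 3.61, SE 0.19, edgeR adjusted p = 2.79e-05). Ifi27l2a rose by a log2 fold change of 3.77 (SE 0.27, edgeR adjusted p = 0.000124) and Oasl1 by 3.14 (SE 0.23, edgeR adjusted p = 0.000133). Rtp4, Ifi27l2a and Oasl1 were already above 1 CPM in LSPC and so could not enter the 27.

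The remaining 5 genes are non-coding or of unknown role. Ccdc184, a coiled-coil protein gene, had 14.1, 70.8 and 47.3 CPM in LSPCT, against 0.049, 0.0846 and 0.0374 CPM in LSPC. BC018473 had 30.0, 8.17 and 12.0 CPM in LSPCT, against 0.931, 0.465 and 0.71 CPM in LSPC. Replicate 1 was the lowest treated library for Ccdc184 and the highest for BC018473. G730013B05Rik had 7.3, 6.68 and 7.62 CPM in LSPCT, against 0.196, 0.254 and 0.224 CPM in LSPC. A930003A15Rik averaged 6.87 ± 1.76 CPM in LSPCT and 0.638 ± 0.34 CPM in LSPC (SD, n = 3 each). Gm11538 had 5.25, 5.48 and 3.56 CPM in LSPCT, against 0.637, 0.719 and 0.896 CPM in LSPC. Both were within 2-fold between treated libraries. RefSeq lists 23 of the 27 as protein-coding and 4 as long non-coding RNAs.

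RefSeq promoter windows (GRCm38.p6, 250 bases before to 50 after a start) were held for 22 of the 27 genes. A match to the kappa-B decamer, the consensus that NF-kB dimers bind, was found on either strand in 6 of them (27.3%), namely Cplx2, Myo1h, Stap2, Ip6k3, Krt23 and Pmp22. The share was 12.2% of 10154 other tested genes, 8.82% of 8239 other near-silent genes and 9.55% of all 27025 genes with a window. A gene was counted if any of its windows held a match. Myo1h, Stap2 and Pmp22 had more than 1 window, and each also had a window without a match. The core of the interferon-stimulated response element, read as GAAA, any 2 bases and GAAA on either strand, was in 1 of the 22 (4.55%), Ifit1, against 3.99% of all genes. The stretches of all but Pmp22, whose matches reach past the printed range, are shown because they carry these matches, from 150 bases before the start to 10 after it, 5′ to 3′ on the gene's strand, with the matches in capitals; overlapping matches in Cplx2 are run together.
Cplx2: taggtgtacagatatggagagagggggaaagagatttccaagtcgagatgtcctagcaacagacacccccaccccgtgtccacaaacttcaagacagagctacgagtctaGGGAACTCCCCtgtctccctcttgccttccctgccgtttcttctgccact
Myo1h: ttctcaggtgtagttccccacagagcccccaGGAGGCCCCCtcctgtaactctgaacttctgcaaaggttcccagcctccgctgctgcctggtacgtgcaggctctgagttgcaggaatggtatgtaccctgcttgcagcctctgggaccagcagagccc
Stap2: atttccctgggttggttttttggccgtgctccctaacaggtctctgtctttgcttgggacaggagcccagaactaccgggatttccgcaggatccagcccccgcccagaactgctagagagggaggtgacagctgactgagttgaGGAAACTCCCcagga
Ip6k3: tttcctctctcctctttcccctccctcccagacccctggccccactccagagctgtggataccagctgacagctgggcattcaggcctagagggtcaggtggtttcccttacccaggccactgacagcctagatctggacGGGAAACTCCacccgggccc
Krt23: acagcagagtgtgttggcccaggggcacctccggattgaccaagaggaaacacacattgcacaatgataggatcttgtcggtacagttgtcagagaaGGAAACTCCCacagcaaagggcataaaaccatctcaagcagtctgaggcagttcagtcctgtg
Ifit1: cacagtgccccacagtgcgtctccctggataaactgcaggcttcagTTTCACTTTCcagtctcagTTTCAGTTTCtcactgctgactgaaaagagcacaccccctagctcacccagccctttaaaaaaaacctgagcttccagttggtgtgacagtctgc
A match describes letters in the window and is not evidence of binding, and the windows need not hold the start used in these cells. The median ratio of observed to expected CpG was 0.39 in the 28 windows of the 22 genes, against 0.38 over all 32851 windows. It was 0.74 in the windows of other tested genes and 0.27 in those of other near-silent genes.

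The Cplx2 stretch is chr13:54302406-54302565 on the plus strand and that of Myo1h chr5:114356665-114356824 on the plus strand. Stap2 is chr17:56005597-56005756 and Ip6k3 chr17:27167755-27167914, both on the minus strand. Krt23 is chr11:99493111-99493270 on the minus strand and Ifit1 chr19:34640739-34640898 on the plus strand. The counts were made on mm9, so these coordinates of GRCm38.p6 do not apply to them.

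The 27 genes were spread over 15 chromosomes. Chromosome 11 held Pmp22, Krt23, BC018473 and Gm11538, and chromosome 16 held Cd96, Dscam, G730013B05Rik and A930003A15Rik, 4 each. These chromosomes hold 8.43% and 3.21% of tested genes. Chromosome 1 held Cadm3, Gpr55 and 5730559C18Rik. None of the 27 had another of them among the 5 listed genes on either side in RefSeq order, so no 2 were close neighbours.

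The genes beside them were tested, and all but Ackr1, St6galnac1 and St6galnac2 were not used in the choice. Those 3 passed the same CPM thresholds and were left out by symbol, so nothing is read from their rise. Of 54 nearest tested neighbours, 15 rose (27.8%), beside 8.96% of all tested genes, and 4 fell (7.41%), beside 8.24%. Those that rose lay beside 11 of the 27 genes. Leaving out Ackr1, St6galnac1 and St6galnac2, which passed the same CPM thresholds, 12 of 51 rose (23.5%), and leaving out neighbours that overlap as well, 9 of 45. Over the 2 nearest genes on each side, 19 of 108 rose (17.6%). The median log2 fold change of the nearest neighbours was 0.19, against 0.0 for all tested genes.

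Serpina3g, beside Serpina3f, had 126.0, 167.0 and 205.0 CPM in LSPCT, against 1.57, 3.21 and 2.65 CPM in LSPC (log2 fold change 6.04, SE 0.28, edgeR adjusted p = 1.97e-05). It is a protease inhibitor of the same family, so reads may be shared. Serpina12, on the other side, had no count in LSPCT, against 1.03, 1.1 and 1.08 CPM in LSPC, at least 22.9-fold lower (3 counts over the LSPCT group). Gpr25, an orphan receptor gene beside 5730559C18Rik, had 89.1, 167.0 and 118.0 CPM in LSPCT, against 3.04, 3.26 and 1.83 CPM in LSPC (log2 fold change 5.52, SE 0.31, edgeR adjusted p = 3.6e-05). Both neighbours named as higher had no overlap between the groups.

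Ackr1, a chemokine-binding receptor gene, overlaps exons of Cadm3 on the same strand in GENCODE vM21. It had 16.3, 22.0 and 19.8 CPM in LSPCT and no count in any LSPC library, at least 459-fold higher (3 counts over the LSPC group). Both genes beside BC018473 passed the thresholds as well. St6galnac1, a sialyltransferase gene, had 23.0, 14.5 and 11 CPM in LSPCT, against 0.098, 0 and 0.112 CPM in LSPC. St6galnac2, of the same family, had 23.6, 4.13 and 6.77 CPM in LSPCT, against 0.784, 0.254 and 0.261 CPM in LSPC. BC018473 and both of these neighbours were highest in LSPCT replicate 1.

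Bbx, a transcription factor gene beside G730013B05Rik, had 102.0, 134.0 and 148.0 CPM in LSPCT, against 37.1, 39.4 and 37.5 CPM in LSPC (log2 fold change 1.74, SE 0.14, edgeR adjusted p = 0.000153). Acacb, an acetyl-CoA carboxylase gene beside Myo1h, rose by a log2 fold change of 2.32 (SE 0.25, edgeR adjusted p = 0.000733). Beside Sspo, the zinc finger genes Zfp467 (log2 fold change 2.18, SE 0.24, edgeR adjusted p = 0.000877) and Zfp862-ps (1.06, SE 0.18, edgeR adjusted p = 0.00689) rose. Asb8, beside Ccdc184, rose by 1.01 (SE 0.08, edgeR adjusted p = 0.000149), while Olfr286 on its other side had no count in LSPCT and was at least 12.3-fold lower than in LSPC. Neighbours of one gene thus did not always move one way.

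**Figure D3:**
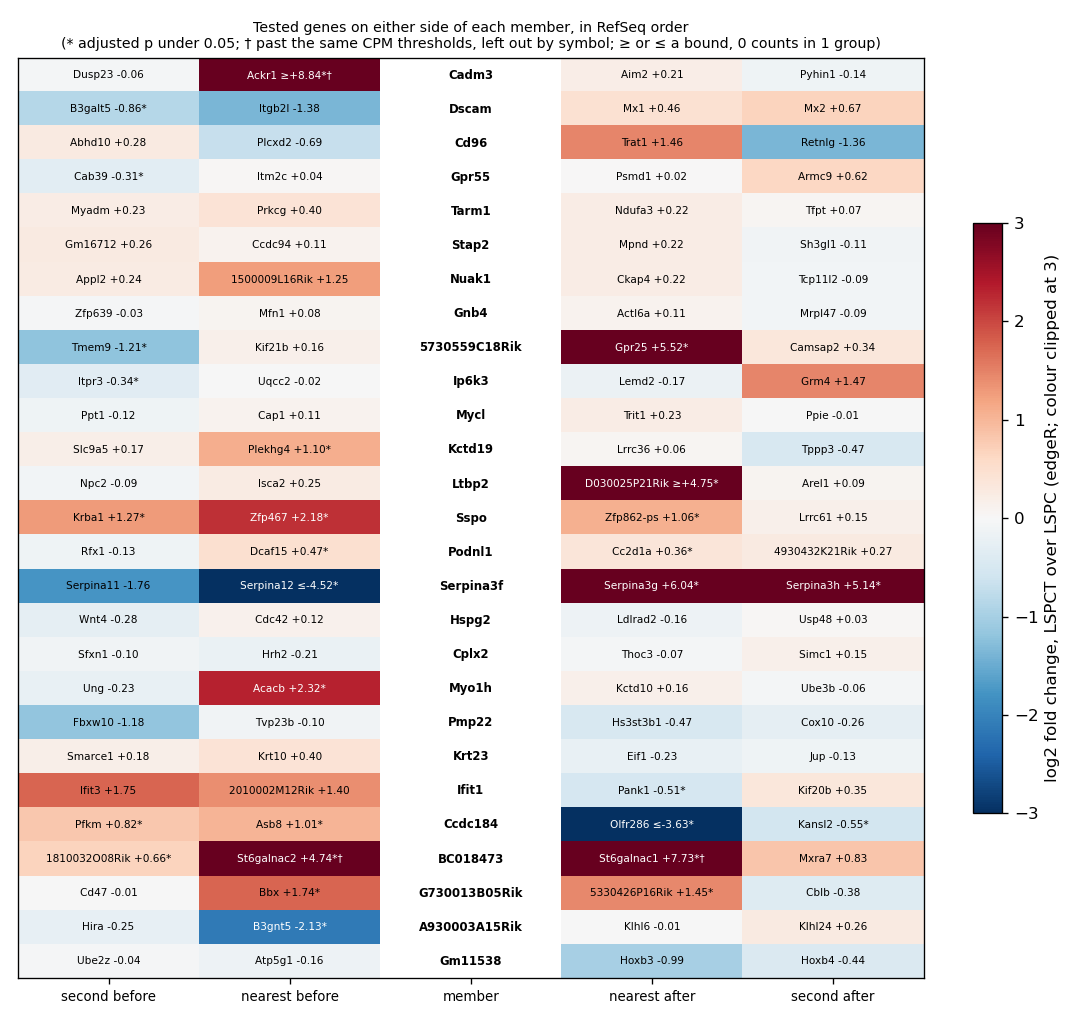
Log2 fold change, LSPCT over LSPC, of the 2 tested genes before and after each of the 27 genes in RefSeq order, with red for higher and blue for lower in LSPCT. The nearest neighbours on either side include 15 that rose, 3 of them past the same CPM thresholds, and 4 that fell.

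In GENCODE vM21, 6 of the 27 genes overlap another listed gene, and RefSeq adds 3. Exons overlap for Cadm3 on the same strand and for Gpr55, Ltbp2, Myo1h and Kctd19 on opposite strands. Whether strand was used in counting is not given, so reads of the pairs on opposite strands may not be told apart. For Cadm3 and Ackr1, on the same strand, strand would not separate reads of the overlapping exons. Kctd10, which overlaps Myo1h, had a log2 fold change of 0.16 (SE 0.16, edgeR adjusted p = 0.533), and Plekhg4, which overlaps Kctd19, rose by 1.1 (SE 0.29, edgeR adjusted p = 0.0334), a call lost without LSPC replicate 1 or 3 or LSPCT replicate 2 or 3.

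The treated libraries also differed among themselves. For the 27 genes the coefficient of variation over the LSPCT libraries had a median of 25.6%, where counting alone gives 6.37%, against 11.4% over the 10159 genes with at least 3 CPM in each LSPCT library. On the log2(CPM + 0.5) scale, LSPCT replicate 1 minus the mean of replicates 2 and 3 had a median of -0.17 over the 27. It exceeded 1 for BC018473 (1.55) and Pmp22 (1.16), and was under -1 for Ccdc184 (-2.0), Tarm1 (-1.62) and 5730559C18Rik (-1.47). These 5 genes are 18.5% of the 27, against 2.87% of those 10159 genes. The 10159 genes were not matched to the 27 by expression level, so neither comparison allows for it.

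LSPCT replicate 1 also stood apart in most macrophage markers. The 17 listed markers summed to 2143.0, 1119.6 and 1169.0 CPM in LSPCT, against 436.0, 426.0 and 603.0 CPM in LSPC, and none was at 0 in all libraries. Of these sums Vcam1 alone held 931.0, 456.0 and 460.3 CPM in LSPCT, against 75.1, 82.5 and 76.0 CPM in LSPC. Vcam1 is also on the lists of NF-kB response genes and of p52 and RelB targets. The median difference of the 17 markers between LSPCT replicate 1 and the other treated libraries was 2.04 on the log2(CPM + 0.5) scale. Of 15 tested, 10 rose, beside 8.96% of all tested genes. Only 3 rose without LSPC replicate 1, 3 without LSPC replicate 2 and 6 without LSPC replicate 3. Mrc1, the mannose receptor, had 57.1, 6.31 and 18.2 CPM in LSPCT, against 1.86, 0 and 0.448 CPM in LSPC. Csf1r (257.0, 318.0 and 300.4 CPM in LSPCT) and Cd68 (97.5, 101.0 and 106.0 CPM in LSPCT) instead had their lowest treated value in LSPCT replicate 1. The median T cell marker was also higher in LSPCT replicate 1, by 0.67 over 16 on the same scale. Thy1, Cd2 and Cd8a went the other way and had their lowest treated value in LSPCT replicate 1. Thy1 had 622.0, 831.0 and 679.9 CPM in LSPCT. Lck, a kinase of T cell receptor signalling, had 54.6, 20.1 and 31.6 CPM in LSPCT, against 12.4, 13.2 and 13.2 CPM in LSPC, and Tcf7, a T cell transcription factor, had 77.3, 29.0 and 41.4 CPM in LSPCT, against 18.7, 18.8 and 17.3 CPM in LSPC. Cd96 was highest in the same library. Most of the 27 did not share that direction, and 13 of them were lowest in LSPCT replicate 1. The part of macrophage or T cell RNA in any of these values was not tested, and in bulk libraries more cells of a type and more RNA per cell cannot be told apart.

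**Figure D4:**
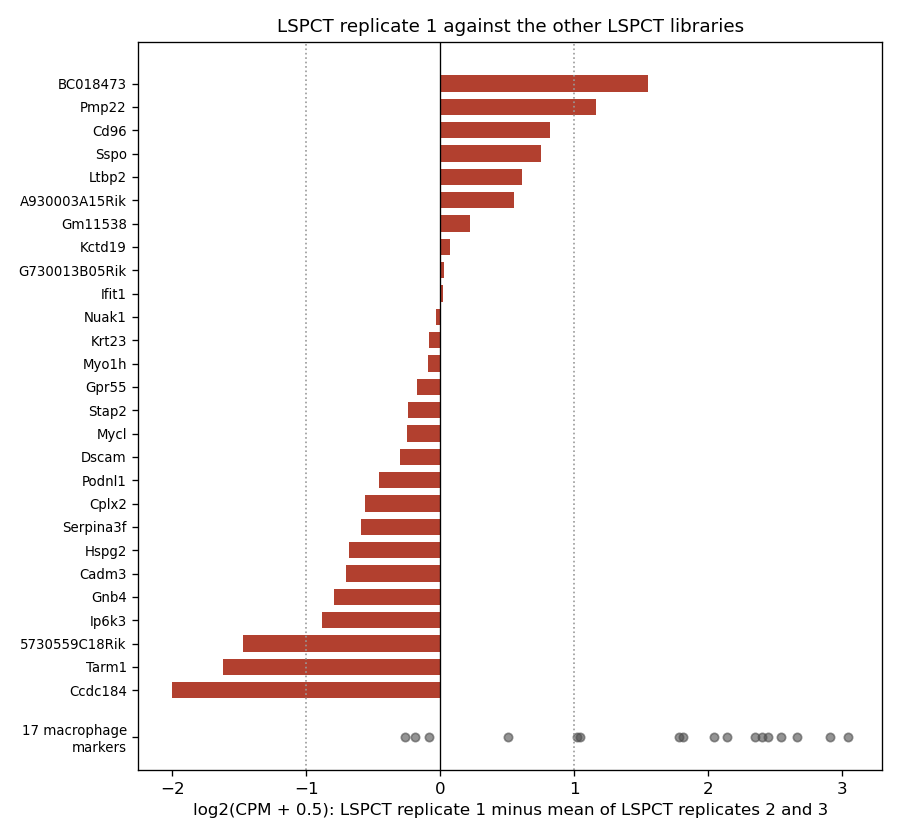
Difference in log2(CPM + 0.5) between LSPCT replicate 1 and the mean of LSPCT replicates 2 and 3 for the 27 genes (bars) and 17 macrophage markers (points), with dotted lines at 1 and -1. BC018473 and Pmp22 lie above 1, and Ccdc184, Tarm1 and 5730559C18Rik lie below -1.

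Genes of the pathway that NIK feeds moved in the same libraries, though none of the 27 is on its list. Of 14 tested noncanonical NF-kB genes, 9 rose and none fell, with a median log2 fold change of 0.96, beside 8.96% of all tested genes that rose, 8.24% that fell and a median of 0.0. Nfkb2 had 377.0, 486.0 and 408.0 CPM in LSPCT, against 31.8, 33.4 and 45.4 CPM in LSPC (log2 fold change 3.51, SE 0.17, edgeR adjusted p = 1.97e-05). Relb had 40.7, 51.2 and 42.6 CPM in LSPCT, against 2.89, 1.57 and 4.74 CPM in LSPC. Of 31 NF-kB response genes, 15 rose and 2 fell, and of 5 tested p52 and RelB targets in lymphoid tissue, 3 rose and none fell. The other 8 of the 13 targets listed were too low to test. These lists share genes, so their counts are not separate. Nfkb2, Relb, Birc3, Nfkbie, Traf1 and Cd40 are on both the noncanonical and the response list. Relb and Traf1 are also on the mature dendritic cell list. Vcam1 is on the response, target and macrophage lists, and all of these shared genes rose.

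Markers of other cell types are given because Cd96, Mycl, Pmp22, Krt23 and Cadm3 are known from such cells. Of 14 tested T cell markers, 8 rose (2 without LSPC replicate 1, 1 without LSPC replicate 2, 3 without LSPC replicate 3 and 4 without LSPCT replicate 3), and the 16 listed summed to 861.0, 944.0 and 824.0 CPM in LSPCT, against 79.9, 83.8 and 78.4 CPM in LSPC. Thy1 alone had 622.0, 831.0 and 679.9 CPM in LSPCT, against 5.73, 8.21 and 6.2 CPM in LSPC, and Cd3d had 2.25, 1.35 and 1.29 CPM in LSPCT, against 0.392, 1.61 and 0.859 CPM in LSPC. Thy1 made up most of the sum in LSPCT. The other 15 markers summed to 239.7, 112.0 and 145.0 CPM in LSPCT, against 74.1, 75.6 and 72.2 CPM in LSPC, and 7 of 13 tested rose. Of 12 tested mature dendritic cell markers, 9 rose (4 without LSPC replicate 1), and the sum over 21 was 261.0, 269.6 and 265.0 CPM in LSPCT, against 129.0, 132.0 and 146.0 CPM in LSPC, with 2 at 0 in every library. Relb and Traf1 are among these 9 and also on the noncanonical NF-kB and response lists, so these counts are not separate. Relb held 40.7, 51.2 and 42.6 CPM of the sums in LSPCT, against 2.89, 1.57 and 4.74 CPM in LSPC. Of 6 tested neuron and glia markers, 1 rose and 3 fell, and the 14 listed summed to 177.0, 181.0 and 157.0 CPM in LSPCT, against 235.0, 249.0 and 260.4 CPM in LSPC. The neuron and glia marker that rose was no longer called without any one LSPC library or without LSPCT replicate 3. Of 11 tested endothelial and stromal markers, 4 rose and 1 fell, with 2 that rose without LSPC replicate 1 and 2 without LSPCT replicate 3. Of 4 tested epithelial markers, none rose (1 without LSPC replicate 3) and 1 fell, a call lost without any one LSPC library or LSPCT replicate 2. Of 8 tested conventional and plasmacytoid dendritic cell markers, 1 rose (3 without LSPC replicate 3) and 1 fell. Of 5 tested B cell markers, 1 rose, a call lost without any one LSPC library, and without LSPCT replicate 1 there were 2 that rose and 1 that fell. Of 4 tested natural killer and innate lymphoid markers, 1 fell, a call lost without LSPC replicate 2, LSPCT replicate 2 or LSPCT replicate 3. Of 6 tested erythroid and megakaryocytic markers, 1 rose. None of 4 tested mast cell, basophil and eosinophil markers was called; without LSPCT replicate 1, 2 fell, without LSPC replicate 1, 1 fell, and without LSPCT replicate 2, 1 rose. Over all tested genes, 8.96% rose and 8.24% fell. The part of such cells in the values of the 27 genes was not tested.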

How the data were processed

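Total RNA of 6 libraries was extracted with Qiagen columns and made into libraries by a standard Illumina protocol, per the labels' protocols. The authors deposited raw counts for each gene symbol, in whole numbers. The submitters' processing notes name TopHat2 2.1.0, featureCounts, FastQC and DESeq2 and the build mm9; the sources used here do not give the annotation, the strand setting or the handling of reads with several positions. From the counts, CPM was computed with raw library totals. The groups were compared with edgeR 4.0.16 (R 4.3.3), with TMM, filterByExpr with a minimum count of 10, the two-sided quasi-likelihood F test on group alone, and p-values adjusted by Benjamini-Hochberg over the 12729 genes kept, with a threshold of 0.05. DESeq2 1.42.0 was an alternative. Replicates of a group differed by more than counting noise, so none was counted as a repeat. Genes were matched by symbol to RefSeq (GRCm38.p6) for order, promoters and class, and to GENCODE vM21 for overlaps; 99.5% of tested genes matched RefSeq. The members, the 16 gene lists and the role groups were chosen with earlier results of these data known, and roles were assigned after the symbols were seen. Values per library are given for up to 4 genes per role with the highest lowest-LSPCT CPM, for genes on a list and for the 3 genes nearest each threshold on either side; neighbours are named for the 10 smallest p among those that rose, and up to 3 genes with the smallest p are named from a list that holds a member. Other genes named from the lists, neighbours that fell or overlap, and markers given as examples were chosen after their values were seen.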

Additional observations from a re-analysis of the deposited data

How the results depend on the processing

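The number of genes chosen was 11 with an LSPC limit of 0.5 CPM and 18 with an LSPCT limit of 5 CPM, against 27. It was 37 with no symbol left out, and ranged between 27 and 50 when single libraries were left out. Genes called numbered 2189, and between 1029 and 3249 with a library left out (1140 that rose, between 586 and 1657; 1049 that fell, between 443 and 1592); the cause was not tested. Nearest neighbours that rose numbered 15, between 11 and 17 with a library left out, and 9 when those that overlap a member or were left out by symbol are not counted, an alternative added after the data were seen, where fewer genes are counted. List members that passed numbered 90, and between 59 and 96 with a library left out. Leaving out a library leaves 2 in its group. DESeq2 called 2761 genes, RLE scaling 2158 and no filter 2211. With the replicate number as a block, 1792 genes were called (959 rose, 833 fell), 13 neighbours and 83 list members. The deviations of same-numbered libraries correlated at 0.119, -0.115 and 0.106. LSPCT replicates 1 and 3 correlated best with the LSPC library of their own number, and LSPCT replicate 2 with LSPC replicate 3 (0.14). With 3 libraries per group, values this small cannot decide whether same-numbered libraries were paired. The 10 neighbours named for their p kept their direction and side of the threshold under the alternatives run (100 values). Among the 10, Ackr1, St6galnac1 and St6galnac2 passed the CPM thresholds of the choice, so nothing is read from their values. For 16 other genes named in the text, checked in the same way after the data were seen, 149 values did so. The exceptions were Plekhg4, no longer called without LSPC replicate 1 or 3 or LSPCT replicate 2 or 3, Lck, no longer called without LSPC replicate 1 or 2, Tcf7, no longer called without any one LSPC library, and Kctd10, called without LSPCT replicate 1 (0.33) and at -0.0 without LSPCT replicate 2. Of counts per list, 283 stayed within 1.5 times and 37 moved; with the replicate block, the calls of a natural killer marker and an epithelial marker that fell were lost. At this depth, a count of 0 allows up to 0.15 CPM, which limits ratios over LSPC.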

Other observations

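Genes that entered when a single library was left out show what lies just outside the thresholds. Without LSPC replicate 3, 17 were added, among them Cd80, a costimulatory ligand of antigen-presenting cells, with 16.4, 16.9 and 16.3 CPM in LSPCT, against 0.245, 0.254 and 1.79 CPM in LSPC. Without LSPCT replicate 1, 23 were added, among them Traf1, an adaptor of tumour necrosis factor receptors, with 1.15, 3.39 and 3.3 CPM in LSPCT, against 0.441, 0.338 and 0.934 CPM in LSPC. Without LSPCT replicate 2, 8 were added, among them Spic, a transcription factor gene of iron-recycling macrophages. These genes were chosen after their values were seen.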
